A study of Homo sapiens with 4 samples.

Results

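The genes described are the classical protein tyrosine phosphatases, taken from the gene name that the authors' deposited table puts beside each region of chromatin. All lines named with a gene whose symbol is PTPN and a number, or PTPR and a single letter with an optional digit, were used, and PTPN1 was left out. This gave 367 of 91107 distinct regions and 36 of 17301 genes. Of these, 16 genes with 100 regions are non-receptor enzymes (PTPN) and 20 genes with 267 regions are receptor-type enzymes (PTPR). H3K27ac, the acetylated form of histone H3 found at active promoters and enhancers, was mapped by sequencing of immunoprecipitated chromatin from A375 cells, an established line from a human melanoma, grown in DMEM with 10% serum. There were 2 libraries from cells given the vehicle isopropanol for 48 hours and 2 from cells given 1 mM octanoate, a medium-chain fatty acid, for 48 hours. Whether the 2 libraries of a group came from separate cultures is not given in the sources used here, so the p-values measure only the spread between these libraries, which may be technical.

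Classical tyrosine phosphatases remove phosphate from tyrosine residues and so oppose the tyrosine kinases. They share a catalytic domain built around a cysteine and differ in what is attached to it. The non-receptor enzymes carry SH2, FERM, PDZ or proline-rich parts that place them in the cell, and the receptor-type enzymes cross the membrane and often carry adhesion-type domains outside the cell. In melanoma cells they act on the growth factor, adhesion and MAP kinase signals that run through tyrosine phosphorylation.

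The values are those of 1 comparison that the authors fitted, which gives every region a mean level, a log2 fold change with a standard error, and p-values. The header does not name the numerator of the fold change, so directions are given as positive or negative. The depth of each library is unknown and no spread between replicates could be computed, so each error is the authors' standard error (SE). A region counts as tested when the deposited adjusted p-value was computed, which held for 36436 regions (40.0%), all with a mean level above 18.4 normalized units. Over these the median log2 fold change was 0.32, a ratio of 1.25, and 87.3% of values were positive. Each phosphatase value below was therefore read beside this shift. Of the markers of the cell type, SOX10, MITF, PMEL and S100B had a region at their start in the deposited table, with levels from 55.2 to 774, as did AXL, NGFR, SOX9 and JUN, with 39.4 to 516. MLANA, TYR and DCT had none. Of the blood cell markers CORO1A alone had a start region (37.6), of the hepatocyte markers APOA1 alone (9.80), and of the epithelial markers KRT18 and EPCAM (261 and 50.5).

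Sequence before the starts is shown first, because marked and unmarked starts of this family differ in it. RefSeq (GRCh38.p14) gave 50 start windows for 31 of the 36 genes, from 250 bases before to 50 after a start, and PTPN11, PTPRB, PTPRJ, PTPRN2 and PTPRQ were not matched in the table of start windows. A deposited region overlapped 33 of the 50 windows (66.0%), against 53.3% of 34943 windows of all genes. The regions use the build hg38 per the submitters' processing notes. The 250 bases before each of 7 starts are printed 5′ to 3′ on the strand of the gene, with every CG dinucleotide in capitals. PTPRF and PTPRU hold the called regions nearest a start, and PTPRG has the highest level per kb among the start regions. PTPRT is rich in CG and has no region at its start, PTPRH is poor in CG and has one, and the pair from PTPRE compares its first start with a start inside the gene. Positions are chr1:43530633-43530882 (plus) for PTPRF, chr1:29236272-29236521 (plus) for PTPRU, chr3:61561321-61561570 (plus) for PTPRG, chr20:43189907-43190156 (minus) for PTPRT, chr19:55209502-55209751 (minus) for PTPRH, and chr10:127906853-127907102 (plus) and chr10:128047362-128047611 (plus) for PTPRE.
PTPRF: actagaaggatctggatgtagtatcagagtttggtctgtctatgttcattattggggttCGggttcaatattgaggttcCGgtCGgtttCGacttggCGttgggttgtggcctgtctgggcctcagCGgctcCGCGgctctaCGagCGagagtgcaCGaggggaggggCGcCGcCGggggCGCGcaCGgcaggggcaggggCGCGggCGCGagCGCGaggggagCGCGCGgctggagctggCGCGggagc
PTPRU: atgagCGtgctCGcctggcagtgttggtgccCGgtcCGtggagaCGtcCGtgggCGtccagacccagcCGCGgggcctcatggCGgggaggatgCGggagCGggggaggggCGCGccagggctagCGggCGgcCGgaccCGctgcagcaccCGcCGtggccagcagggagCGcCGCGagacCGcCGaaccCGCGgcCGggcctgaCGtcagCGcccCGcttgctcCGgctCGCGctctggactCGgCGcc
PTPRG: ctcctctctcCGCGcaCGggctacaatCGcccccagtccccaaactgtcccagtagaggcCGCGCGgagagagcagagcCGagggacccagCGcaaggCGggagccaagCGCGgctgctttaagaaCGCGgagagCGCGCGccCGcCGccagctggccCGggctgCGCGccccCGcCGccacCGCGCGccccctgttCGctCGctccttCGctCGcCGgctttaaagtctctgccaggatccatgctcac
PTPRT: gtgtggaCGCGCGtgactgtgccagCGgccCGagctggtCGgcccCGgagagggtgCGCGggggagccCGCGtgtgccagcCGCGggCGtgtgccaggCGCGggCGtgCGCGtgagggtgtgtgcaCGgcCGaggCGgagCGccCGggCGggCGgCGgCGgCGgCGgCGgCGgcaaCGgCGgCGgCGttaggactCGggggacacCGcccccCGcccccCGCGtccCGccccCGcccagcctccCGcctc
PTPRH: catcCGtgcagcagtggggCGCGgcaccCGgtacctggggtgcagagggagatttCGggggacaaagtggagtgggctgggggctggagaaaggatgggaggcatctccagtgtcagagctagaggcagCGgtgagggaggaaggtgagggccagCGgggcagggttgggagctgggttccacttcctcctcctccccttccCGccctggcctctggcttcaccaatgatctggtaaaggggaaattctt
PTPRE, first start: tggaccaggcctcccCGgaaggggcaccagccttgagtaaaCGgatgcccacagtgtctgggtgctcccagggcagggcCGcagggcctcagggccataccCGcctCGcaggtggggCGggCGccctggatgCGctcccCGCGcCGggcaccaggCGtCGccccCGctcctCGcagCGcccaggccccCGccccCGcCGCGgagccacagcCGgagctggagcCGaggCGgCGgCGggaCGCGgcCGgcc
PTPRE, start inside the gene: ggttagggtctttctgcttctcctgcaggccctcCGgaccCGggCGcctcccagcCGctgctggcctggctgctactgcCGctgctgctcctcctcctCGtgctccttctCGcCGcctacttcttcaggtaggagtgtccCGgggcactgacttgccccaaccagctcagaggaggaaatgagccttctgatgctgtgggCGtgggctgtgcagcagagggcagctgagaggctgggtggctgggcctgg

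The number of CG dinucleotides was 28 before the PTPRF start used here, which lies inside the gene, 36 for PTPRU, 32 for PTPRG and 44 for PTPRT. It was 8 for PTPRH, 28 for the first PTPRE start and 10 for the PTPRE start inside the gene. Over the family, the 33 windows with a region had a median of 22 CG and 68.0% G or C in these 250 bases, and the 17 without one had 4 CG and 47.2%. The windows of all genes showed the same order, with 20 CG and 64.8% where a region overlapped and 3 CG and 48.4% where none did. Of the 31 phosphatase genes with windows, 12 had several and 4 had no window with a region. The windows without a region are thus in part further starts of genes that have a region at another start. PTPRT, an adhesion receptor that binds its own kind on the next cell, is the reverse of the family's order: its 250 bases hold more CG than any other printed sequence, and no deposited region overlapped its window. PTPRH, a receptor with fibronectin-type repeats, departs from the order only in part, with 8 CG and a region over its start. That count lies between the medians of 22 and 4, and its 63.2% G or C is nearer 68.0% than 47.2%. These are not the only exceptions. Windows with a region and fewer CG than PTPRH include those of PTPN22 (3), PTPRR (1 and 1) and an inner PTPN3 start (3). Windows without a region but with many CG include those of PTPN20 (22 and 17) and the first PTPRN start (18). The region over PTPRU begins just past the printed bases, inside the 50 bases after the start. The GC box GGGCGG, counted on both strands, occurred in 20 of the 33 windows with a region (60.6%) and in 5 of the 17 without (29.4%), beside 63.2% and 18.9% of the windows of all genes with and without a region. Of the 50 windows, CCAAT occurred in 14 (32.0% of all windows), TATAAA in 5 (10.8%), CACGTG in 2 (6.32%), CATGTG in 2 (9.45%), TGANTCA in 1 (6.59%) and CCGGAAG in 3 (8.48%). Either strand counted as an occurrence, matches of different motifs may overlap, and a match is a description of letters only.

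Of the 367 phosphatase regions, 150 were tested, 43 beside PTPN genes and 107 beside PTPR genes. Their log2 fold changes had a median of 0.26, with a 95% interval over regions of 0.19 to 0.31, the quartiles were 0.08 and 0.47, and the range ran from -0.99 to 1.53. Positive values made up 119 of 150 (79.3%, Wilson interval 72.2 to 85.0), and 61 of 150 lay above the median of all tested regions. An adjusted p-value under 0.05 was given by the authors' deposited table to 3 of the 150 (2.00%), all positive, beside 1.67% of all tested regions, so the share called was near the background. At an unadjusted p under 0.05 there were 19 positive phosphatase regions of 150, where 17.9% of all tested regions were positive at that threshold. There were 2 negative ones, where 0.475% of all tested regions were negative. Regions of 1 gene share a stretch of chromosome and are not replicates of each other, and the intervals over regions do not cover the spread between libraries. The 217 regions that were not tested had a median of 0.14 with 123 positive (56.7%), beside 0.21 and 64.6% for all untested regions.

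**Figure D1:**
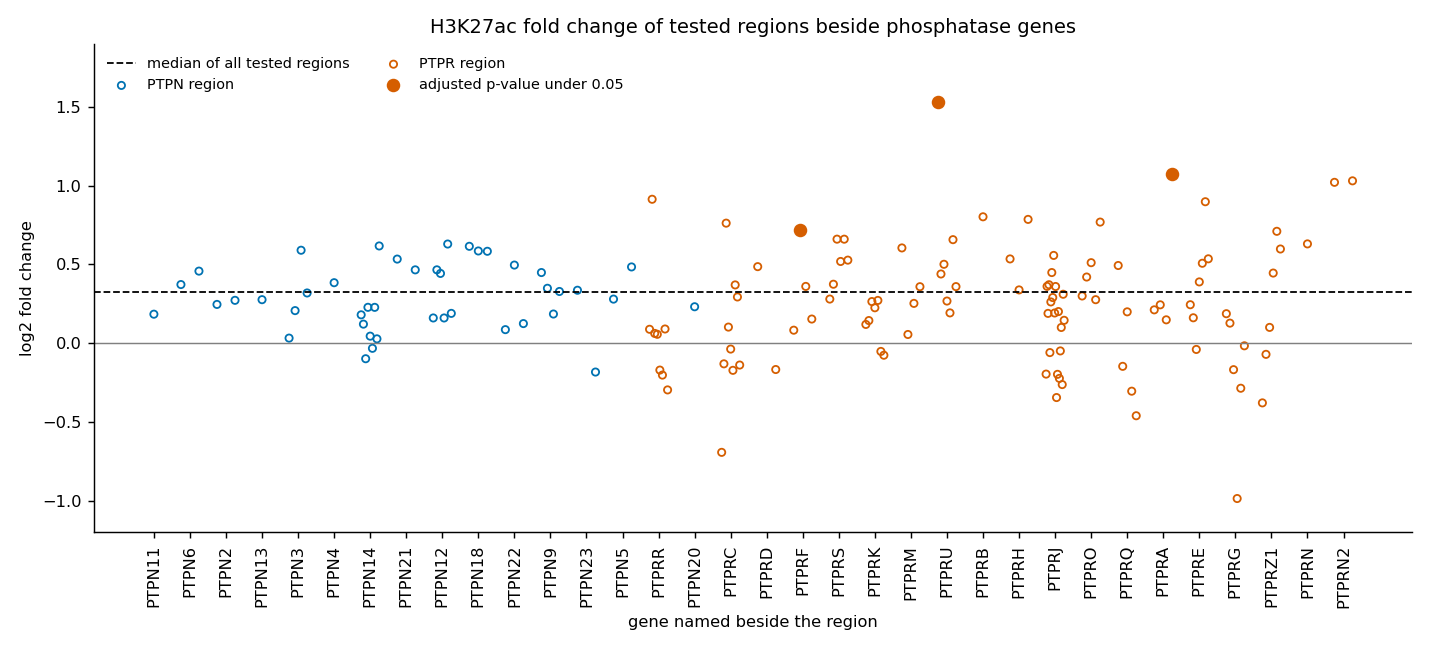
Log2 fold change (vertical axis) of each tested region beside a phosphatase gene (horizontal axis, in order of domain group), from the authors' table. Blue points are PTPN and orange points PTPR regions, filled points have a deposited adjusted p-value under 0.05, and the dashed line is the median of all tested regions, 0.32. The 3 filled points are PTPRU at 1.53, PTPRA at 1.08 and PTPRF at 0.72, and the lowest point is PTPRG at -0.99.

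The non-receptor genes lay closer together than the receptor-type genes. Of 43 tested PTPN regions 40 were positive (93.0%, Wilson interval 81.4 to 97.6), with a median of 0.28. None was called by DESeq2 in the deposited table, beside 1.67% of all tested regions. At an unadjusted p under 0.05 there were 2, both positive (4.65%), beside 17.9% of all tested regions. Of 107 tested PTPR regions 79 were positive (73.8%, 64.8 to 81.2), with a median of 0.24. Each median lay within the other's interval over regions, and the shares were compared with no test. The 2 sets also differ in position: 11 of 43 PTPN and 8 of 107 PTPR regions lay at starts, where all were positive. Within 10 kb 9 of 9 PTPN and 8 of 9 PTPR regions were positive. Between 10 and 100 kb it was 17 of 19 and 35 of 52, and beyond 100 kb 3 of 4 and 28 of 38. All 3 calls and all but 2 of the 21 regions with an unadjusted p under 0.05 belonged to PTPR genes. The calls were 2.80% of the tested PTPR regions, beside 1.67% of all tested regions. At the unadjusted threshold 15.9% of PTPR regions were positive and 1.87% negative, beside 17.9% and 0.475% of all, so the positive share was near the background.

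The 3 called regions lie beside PTPRA, PTPRF and PTPRU. PTPRA, a receptor with a short outer part known for activating SRC family kinases, had 1 called region, chr20:2984573-2987335, 120.4 kb from the start and inside the gene. The authors' deposited table gives it a log2 fold change of 1.08 ± 0.29 (SE), a ratio of 2.11, with an adjusted p of 0.0282 by DESeq2 and a level of 39.5. The other 3 tested PTPRA regions were lower, at 0.15, 0.21 and 0.24 in the deposited table, and the first of the gene, chr20:2867148-2875232, with a level of 203, was at 0.21 ± 0.22. The called value less its error lay above each of these plus its error, and the difference between regions was not tested.

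PTPRF encodes LAR, an adhesion-type receptor of cell contacts. Its start lies in chr1:43521859-43534521, a region of 12662 bases with a level of 272, which had a log2 fold change of 0.72 ± 0.20 and an adjusted p of 0.0322 by DESeq2 in the authors' deposited table. The 3 other tested regions of PTPRF were at 0.08, 0.36 and 0.15. It was the 1 call among the 19 tested start regions of the family, where 0.860% of all tested start regions were called.

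PTPRU, a receptor of the MAM group, had the largest positive value of a tested phosphatase region. This was chr1:29236535-29237747, 20 bases from the deposited start, at 1.53 ± 0.45 with an adjusted p of 0.0449 by DESeq2 in the authors' deposited table. Its level of 20.7 is close to the lowest at which any region was tested. The other 6 tested regions named with PTPRU lie between 332 and 470.1 kb away, outside the gene, at 0.19 to 0.66 in the deposited table. All 7 tested and 16 of all 17 PTPRU regions were positive, and the 42 tested regions of other genes within 1 Mb had a median of 0.32, beside 0.32 for all tested regions.

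When 0.32, the median of all tested regions, was subtracted from every value and the authors' standard errors were kept, none of these 3 remained called. The centred adjusted p-values were 0.535 for PTPRA, 0.867 for PTPRF and 0.477 for PTPRU. After centring 1 phosphatase region was called, beside 0.124% of all tested regions, and it was a negative one beside PTPRG. All 3 calls were lost in that setting.

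PTPRG, a receptor with a carbonic anhydrase-like outer domain, held the most negative tested region of the family. This was chr3:61628129-61631235, inside the gene and 66.2 kb from its start, at -0.99 ± 0.32 with an unadjusted p of 0.0022 and an adjusted p of 0.0795 by DESeq2 in the authors' deposited table. After centring it was at -1.31 with an adjusted p of 0.0458. The untested region beside it, chr3:61626597-61627545, had -1.01 ± 0.53 in the deposited table. The start region of PTPRG, which has the highest level per kb of the family's start regions at 50.6, was at 0.19 ± 0.21. Of the 20 PTPRG regions 13 were negative, and of the 6 tested ones 4 were, with a median of -0.09. The 8 tested regions of other genes within 1 Mb of PTPRG had a median of 0.51, so the gene lay below its surroundings as well as below the table as a whole. PTPRZ1, the related receptor of glial cells, was mixed. Its tested regions before the gene were at -0.38, -0.07 and 0.10 in the deposited table, and those at the start and inside were at 0.45, 0.71 and 0.60. Over both genes 6 of 12 tested regions were positive, with a median of 0.04.

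**Figure D2:**
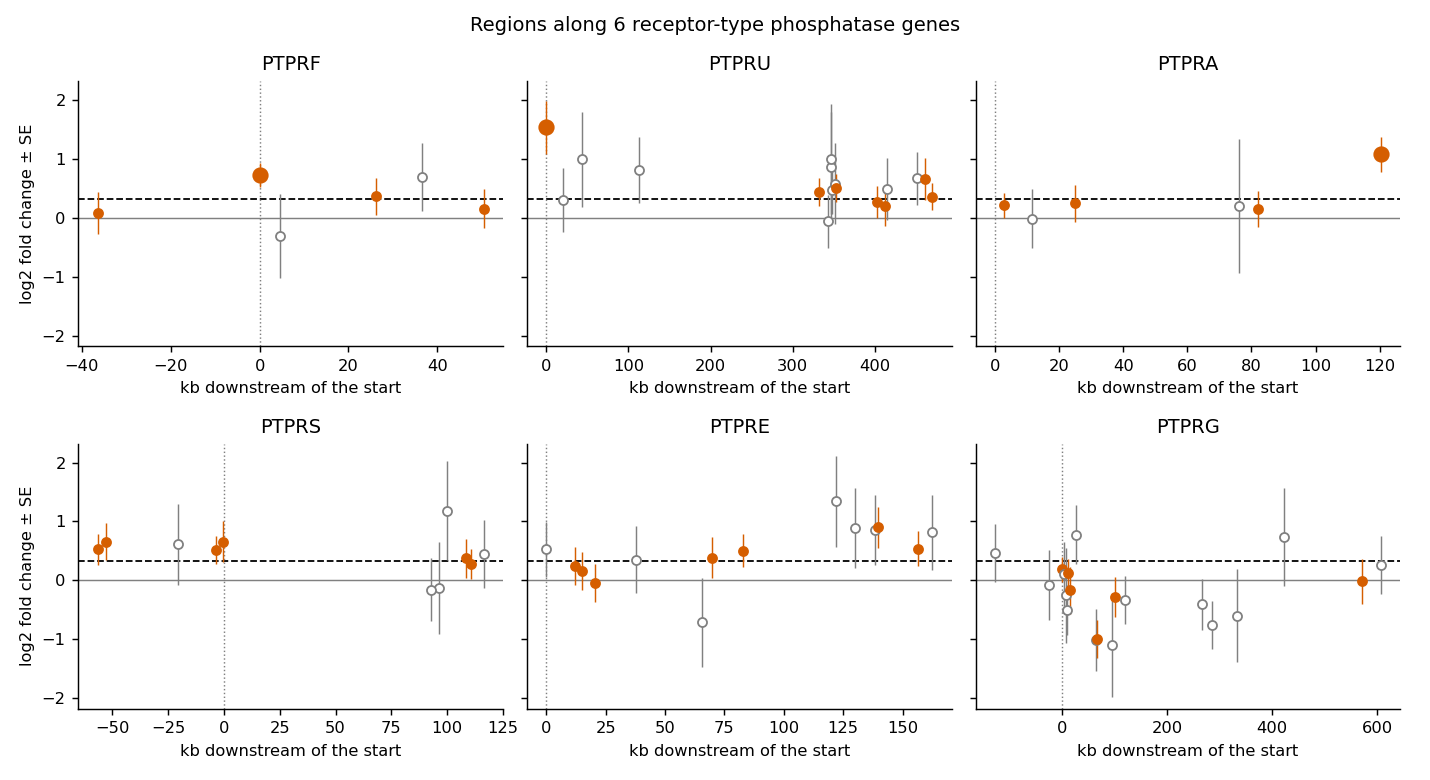
Log2 fold change with standard error (vertical axis) against the distance in kb downstream of the deposited gene start (horizontal axis) for PTPRF, PTPRU, PTPRA, PTPRS, PTPRE and PTPRG, from the authors' table. Filled orange points are tested regions, large ones those with an adjusted p-value under 0.05, open grey points were not tested, the dashed line is the median of all tested regions (0.32), and the dotted line is the gene start. PTPRS and PTPRU lie mostly above 0, and 13 of 20 PTPRG regions lie below it.

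The LAR group, made up of PTPRD, PTPRF and PTPRS, organizes contacts between cells and, in neurons, synapses. Of its 12 tested regions 11 were positive with a median of 0.43. All 6 tested PTPRS regions were positive, with a median of 0.52 and values of 0.28 to 0.66 in the deposited table. Of these 6, 3 had an unadjusted p under 0.05 by DESeq2 (0.0288, 0.0365 and 0.0436), where 17.9% of all tested regions were positive at that threshold. None had an adjusted p under 0.05. The 59 tested regions of other genes within 1 Mb of PTPRS had a median of 0.41, as had the 1572 tested regions of chromosome 19. Of all 11 PTPRS regions 4 lay inside the gene, and the region with the unadjusted p of 0.0436 by DESeq2 lay outside it. A PTPRS region at chr19:5339053-5340804, given by the deposited table as 52.7 kb from the start, overlaps the start window in RefSeq and was at 0.66 ± 0.32. PTPRD had 14 regions, of which 2 were tested, both outside the gene. Its start region was not tested, at a level of 11.7, and had the largest log2 fold change of the start regions, 1.09 ± 0.55, in the deposited table.

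Among the MAM group of adhesion-type receptors, 16 of 18 tested regions were positive. PTPRK had 5 of 7 positive, with its start at 0.27 ± 0.27 in the deposited table, and its negative pair lies upstream of the start, outside the gene, at -0.05 and -0.08. PTPRM had 4 of 4 positive, with 0.60 ± 0.32 at its start. At a second RefSeq start inside PTPRM the value was 0.36 ± 0.28. PTPRT, the member with the CG-rich start above, had 2 untested regions inside the gene, both negative at -0.33 ± 0.57 and -0.80 ± 0.74. With levels of 7.86 and 4.54 these are among the low regions of the table.

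The receptors with a single catalytic domain and fibronectin-type repeats (PTPRB, PTPRH, PTPRJ, PTPRO and PTPRQ) gave 34 tested regions, with a median of 0.27 and 24 positive. PTPRJ, known as a brake on growth factor receptors, had the most regions of any member, 34, of which 20 were tested. They ran from -0.35 to 0.56 in the deposited table, 13 of 20 positive, with the start at 0.26 ± 0.22. The tested PTPRJ regions from 5.28 to 32.3 kb into the gene were all positive, and those at 49.1 and 53.5 kb were at -0.35 and -0.20. PTPRH had 3 tested regions, all positive, at 0.79 ± 0.34, 0.54 ± 0.27 and, over the start printed above, 0.34 ± 0.26. PTPRO, a receptor of podocytes and neurons, had 5 of 5 positive, from 0.28 to 0.77. PTPRB, the endothelial enzyme, had 1 tested region at 0.80 ± 0.35. Of its 5 regions 3 were negative, all untested, and the region nearest the start, at a level of 10.9, had -0.56 ± 0.52. PTPRQ, known from the hair cells of the inner ear, had 2 of 5 positive, and its most negative tested region was at -0.46 ± 0.30.

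PTPRA and PTPRE form the group with a short outer part, where 10 of 11 tested regions were positive. The start region of PTPRE was not tested, at a level of 16.7, and had 0.53 ± 0.46 in the deposited table. The region over the PTPRE start inside the gene, chr10:128046844-128048745, was tested at 0.90 ± 0.34, with an unadjusted p of 0.0085 and an adjusted p of 0.144 by DESeq2. The errors of these PTPRE values overlap, so the starts printed above did not differ beyond them. PTPRN and PTPRN2 are proteins of secretory vesicles with little catalytic activity. All 9 of their regions were positive. The tested PTPRN2 pair lies deep inside this long gene, 1022 and 1032 kb from the start, at 1.03 ± 0.34 and 1.02 ± 0.38, with adjusted p-values of 0.0822 and 0.139 by DESeq2 in the deposited table. PTPRN had 1 tested region at 0.63 ± 0.38, and its region nearest the start, at a level of 4.50 and untested, had 2.34 ± 0.91.

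PTPRC encodes CD45, the phosphatase of blood cells, and no region lay at its start in the deposited table. Of the 23 regions named with it, 5 lay in the gene and 18 outside. Of these 18, 9 lay over MIR181A1HG, the noncoding host gene of microRNAs of the miR-181 family. The region of highest level named with any phosphatase, chr1:198928722-198938206 at 408, covers the RefSeq start window of MIR181A1HG and not that of PTPRC. It was at 0.37 ± 0.20 with an adjusted p of 0.294 by DESeq2 in the deposited table. Another over the same noncoding gene, chr1:198879949-198882977, was at 0.76 ± 0.28 (adjusted p 0.122 by DESeq2). Among tested regions, the only negative one with an unadjusted p under 0.05 apart from PTPRG was chr1:198605036-198606912, before PTPRC, at -0.69 ± 0.35 with an unadjusted p of 0.0453 and an adjusted p of 0.262 by DESeq2. Inside the gene the single tested PTPRC region was at -0.13 ± 0.28. Most regions that carry the name PTPRC are therefore not in the gene. Over the whole family 275 of 367 regions lay inside the named gene, 34 over another RefSeq gene and 58 over none, and regions inside and outside were at medians of 0.25 and 0.27.

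Among the non-receptor enzymes, the PEST group (PTPN12, PTPN18 and PTPN22), whose proline-rich tails bind partners in adhesion and in lymphocyte signalling, was positive in 12 of 12 tested regions with a median of 0.45. PTPN12, known for acting on focal adhesion proteins, had 6 tested regions from 0.16 to 0.63 in the deposited table. Its start region, with a level of 251, was at 0.44 ± 0.22, with an unadjusted p of 0.0435 and an adjusted p of 0.258 by DESeq2. PTPN18 had 3 tested regions within a narrow range, 0.58 to 0.62. PTPN22, an enzyme of lymphocytes, had 3 at 0.09 to 0.50, with no region over its deposited start.

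The FERM group joins membrane and cytoskeleton. PTPN14, a regulator of the YAP protein, had 9 tested regions, of which 7 were positive. Over all 27 of its regions, most of them low and untested, 10 were positive. Its widest region, chr1:214437364-214450377, is the widest of the family at 13013 bases, with a level of 369 and a log2 fold change of -0.10 ± 0.20 in the deposited table. The start of PTPN14 was at 0.23 ± 0.22, and its tested regions had a median of 0.12, beside 0.16 for the 18 tested regions of other genes within 1 Mb. PTPN14 lies in a stretch with low values, unlike PTPRG. PTPN21, its nearest relative, had 2 tested regions at 0.53 and 0.47. The FERM and PDZ group (PTPN3, PTPN4 and PTPN13) was positive in 6 of 6, with starts at 0.59 ± 0.31, 0.38 ± 0.23 and 0.28 ± 0.29. The PTPN13 start region is shared with MAPK10, the gene that the deposited table also names for it.

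PTPN11 encodes SHP2, the SH2 enzyme needed for RAS activation by receptor kinases, and its start had the smallest value of the 21 start regions, 0.18 ± 0.23 at a level of 131 in the deposited table. PTPN6, the SHP1 enzyme of blood cells, had tested regions at 0.37 and 0.46 and none over its deposited start. PTPN2, which acts on JAK and STAT proteins, was at 0.27 ± 0.28 at its start. PTPN9, which carries a Sec14 lipid-binding domain, had 4 of 4 positive with its start at 0.33 ± 0.24. PTPN23, an endosomal protein with a BRO1 domain, was at 0.34 ± 0.23 at its start and -0.18 ± 0.30 at its other tested region. The enzymes that act on MAP kinases (PTPN5, PTPN7 and PTPRR) had a median of 0.08 over 10 tested regions, of which 7 were positive. PTPRR had 8 of these, from -0.30 to 0.91, and the region over its starts inside the gene, chr12:70752244-70759233, was at -0.20 ± 0.22. PTPN7 had 1 region, untested, at 0.39 ± 0.45, and PTPN20 had 1 outside the gene at 0.23 ± 0.31.

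A region overlapped the deposited start of 21 of the 36 genes, 11 PTPN and 10 PTPR, and the log2 fold change was positive at all 21. The values ran from 0.18 to 1.09 with a median of 0.38, and standard errors in the deposited table ran from 0.20 to 0.55. Positive values at starts were the rule in the whole table too: 98.1% of 9996 tested start regions were positive, with a median of 0.35. The 19 tested phosphatase starts had a median of 0.34. Levels per kb of region were highest at PTPRG (50.6), PTPN14 (42.4), PTPN9 (37.5), PTPN12 (36.2), PTPN23 (35.7) and PTPRJ (35.1). They allow for the width of a region and not for other differences between genes. The PTPRG start, with the highest level per kb, had the lowest fold change after PTPN11. Starts next to each other in the order of fold changes differed by less than the larger of their standard errors, which sorting makes likely. Starts far apart in that order could differ by more. PTPRF (0.72 ± 0.20) lay above PTPN11 (0.18 ± 0.23) by more than either error. No pair of starts was tested.

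**Figure D3:**
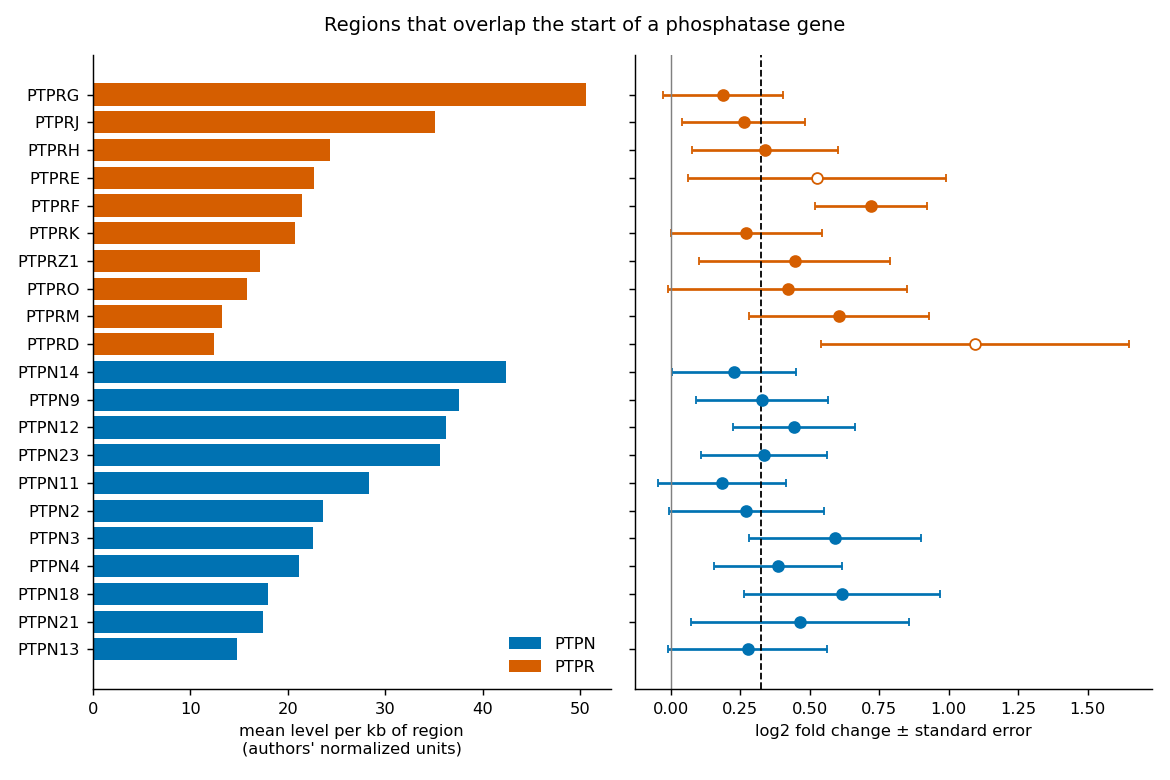
Start regions of 21 phosphatase genes (rows): the bars give the mean level per kb of region in the authors' normalized units, and the points the log2 fold change with its standard error. Open points were not tested, the dashed line is the median of all tested regions (0.32), and blue and orange stand for PTPN and PTPR. PTPRG has the longest bar (50.6), all points lie above 0, and PTPRD (1.09) has the largest value.

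Away from the starts the values were more mixed. Within 10 kb of a start 17 of 18 tested phosphatase regions were positive, with a median of 0.33. Between 10 and 100 kb 52 of 71 were positive (73.2%) with a median of 0.19, where all tested regions at that distance had 84.4% and 0.32. Beyond 100 kb 31 of 42 were positive (73.8%) with a median of 0.27, beside 78.9% and 0.27. Compared by distance, the median of the family was thus lower mostly between 10 and 100 kb. The family also had a smaller share of start regions, 19 of 150 tested, beside 9996 of 36436 of all. Its median over all distances therefore reflects this mix of positions as well. Distances are to the deposited start, so regions over other RefSeq starts, as at PTPRS and PTPRR, count here as away from it. Among PTPR genes between 10 and 100 kb 35 of 52 regions were positive with a median of 0.15, and among PTPN genes 17 of 19 with a median of 0.28. No test of these differences was made.

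**Figure D4:**
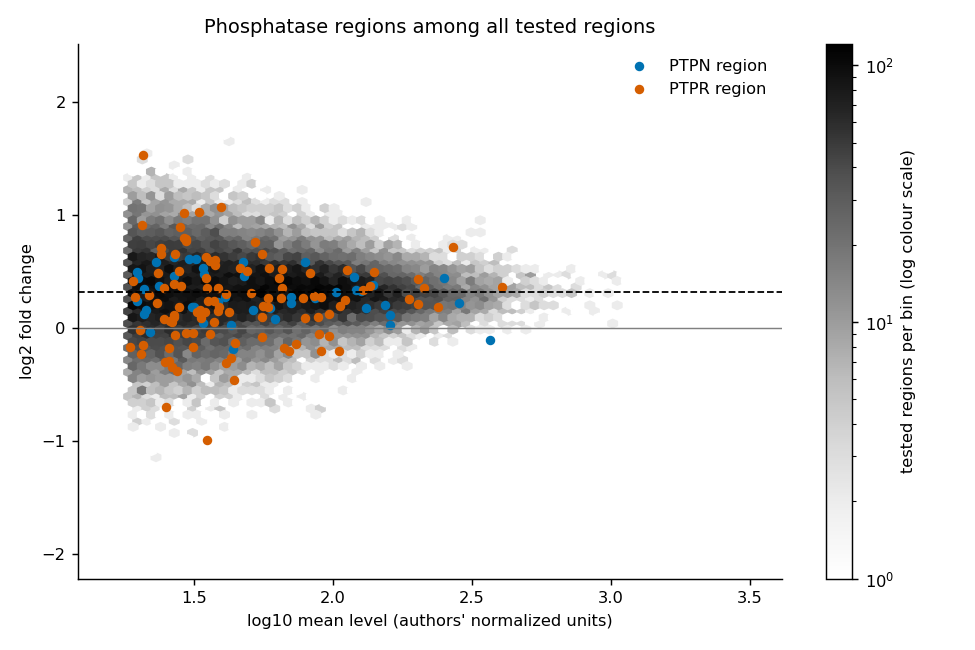
Log2 fold change (vertical axis) against the log10 of the mean level in the authors' normalized units (horizontal axis) for tested regions. Grey bins hold all tested regions, shaded by their number on a log scale, blue points are PTPN and orange points PTPR regions, and the dashed line is the median, 0.32. The PTPRF start has 0.72 at a level of 272, and the lowest orange point is the PTPRG region with -0.99 at a level of 35.2.

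There were 21 genes with at least 3 tested regions. The median of the gene was positive for 18 of them, and in 12 every tested region was positive. Gene medians ran from -0.15 (PTPRQ) to 0.59 (PTPN18). Set beside the tested regions of other genes within 1 Mb, 14 of the 21 had a lower median and 7 a higher one. PTPRG (-0.09 beside 0.51), PTPRQ (-0.15 beside 0.32) and PTPRC (-0.04 beside 0.32) lay furthest below. PTPN18 (0.59 beside 0.26) and PTPRZ1 (0.27 beside 0.03) lay furthest above. These are descriptions of single stretches of chromosome, with no test.

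**Figure D5:**
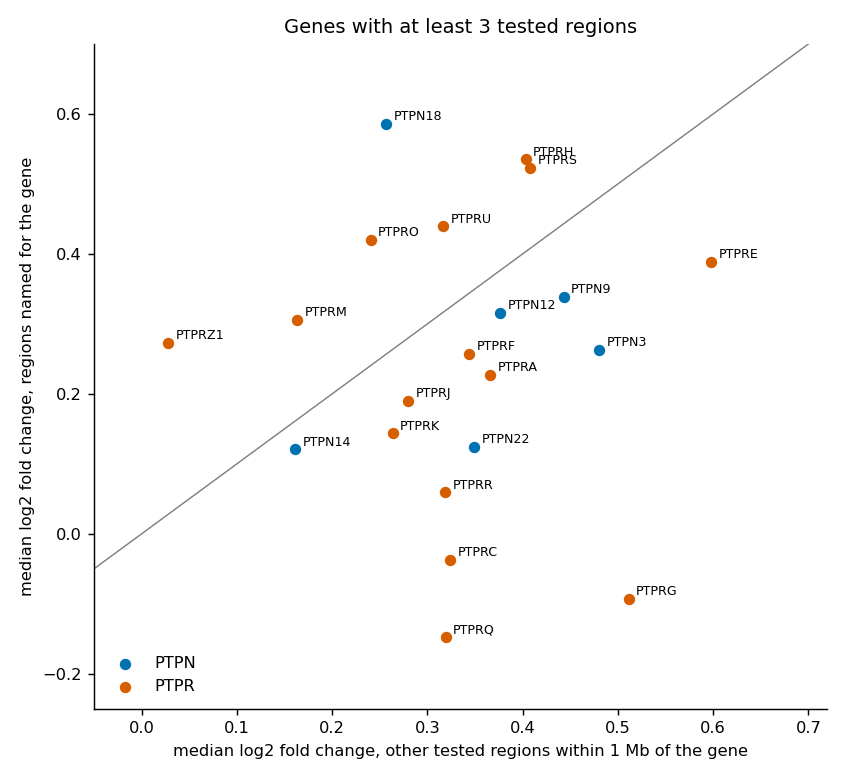
Median log2 fold change over the tested regions of a gene (vertical axis) against the median over tested regions of other genes within 1 Mb (horizontal axis), for the 21 genes with at least 3 tested regions. The line marks equal values, and blue and orange stand for PTPN and PTPR. PTPRG, PTPRQ and PTPRC lie below the line with negative medians, and PTPN18 lies furthest above it.

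Other phosphatases and the tyrosine kinases, which add the phosphate, were set beside the family. The dual specificity phosphatases, which also remove phosphate from serine and threonine and shut off MAP kinases, had 124 tested regions with a median of 0.41 and 96.8% positive. They held 3 calls in the deposited table (2.42%, beside 1.67% of all tested regions), in regions named with DUSP1 (1.14 ± 0.26), DUSP5 (1.08 ± 0.31) and DUSP10 (0.88 ± 0.20) and away from their starts. The cytosolic tyrosine kinases had 78 tested regions with a median of 0.39 and 93.6% positive. None was called by DESeq2, beside 1.67% of all tested regions. At an unadjusted p under 0.05 there were 22 positive (28.2%, beside 17.9% of all) and none negative (0.475% of all). The receptor tyrosine kinases had 148 with a median of 0.29 and 77.7% positive. The receptor-type phosphatases at 0.24 and 73.8% were thus closest to the receptor kinases, and neither was compared by a test.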

How the data were processed

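H3K27ac chromatin immunoprecipitation was sequenced in 2 vehicle and 2 octanoate libraries, grouped by the treatment in the labels. Per the submitters' processing notes, which give no roles or order, Trim Galore, cutadapt, FastQC, Bowtie2, Picard, MACS2, featureCounts, DESeq2 and bedtools 2.29.1 were used, with the build hg38. The data were the authors' deposited table of 1 comparison. Per the file headers, it gives a mean signal normalized by the authors, a log2 fold change with its standard error in log2 units, a score (the statistic) and p-values. It holds no value per library, so the depth is unknown, the columns of single libraries left out numbered 0, and no test was fitted. A deposited adjusted p-value of 1 was read as not computed, because Benjamini-Hochberg adjustment over the other 36436 regions gave the authors' values back to within 1.58e-14. Lines that repeat a region for another gene were merged. Medians, Wilson intervals, centring and overlaps with the RefSeq tables (GRCh38.p14) were computed in Python 3.11.15 with pandas 2.3.3. Centring and the adjustment of p-values were checked on simulated data, and the Wilson intervals and overlaps were not. Distances are those of the deposited table, and regions at a distance of 0 are called start regions.

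The members and lists were chosen with earlier results of these data known. The rule for named regions took all calls, the 10 smallest unadjusted p-values and 5 most negative values among tested regions, the 5 widest and 5 of highest level, and 1 region nearest the start of each gene. Other single regions were named after their values were seen. A region's gene name does not show that the region acts on it. Alternatives were other thresholds, centring, other adjustments and other choices of regions. Exons and introns were not analysed here, and calls among receptor tyrosine kinases are not reported here.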

Additional observations from a re-analysis of the deposited data

How the results depend on the processing

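No paired analysis was possible because values of single libraries are not in the table used. Leaving out a library was not run for the same reason. The 3 calls among phosphatase regions became 0 at an adjusted p threshold of 0.01, 0 with adjustment over all distinct regions (0.0700 for PTPRA, 0.0793 for PTPRF and 0.110 for PTPRU) and 1 after centring on the median of tested regions, which is the PTPRG region. They were 2 at an absolute log2 fold change of at least 1, and 3 when table lines were counted. The median over all phosphatase regions (0.26) was 0.34 at gene starts, 0.31 for the region of highest level of each gene, and -0.066 after centring. The PTPN median (0.28) was -0.047 after centring. The PTPR median (0.24) was 0.38 at starts, 0.34 for the regions of highest level and -0.079 after centring. The share of positive values (79.3%) was 65.9% over all regions, 100% at starts, 91.2% for gene medians and for the regions of highest level, and 40.7% after centring. Centring subtracts 0.32 from each value, so a median turns negative only where it lay below 0.32, as these 3 medians did. With 1 gene at a time left out, medians ran from 0.24 (without PTPRS) to 0.27 (without PTPN14) for all, 0.26 (without PTPN18) to 0.33 (without PTPN14) for PTPN, 0.21 (without PTPRS) to 0.26 (without PTPRR) for PTPR, and shares from 78.3% (without PTPRU) to 81.6% (without PTPRC). Calls among dual specificity phosphatases were 0 after centring. Of 41 named regions that were tested, 37 kept their side of the threshold after centring. Depth per library is unknown, and regions with a mean level under 18.4 carry no adjusted p-value.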
